A study of Mus musculus with 108 samples.

Results

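The regions described here are stretches of the mouse liver genome that carried the Polycomb chromatin state in young mice, carried the quiescent state in 12-month-old mice on a standard diet, and carried the Polycomb state in 12-month-old mice under caloric restriction. They were chosen by measured state labels: an autosomal bin of 200 bp is a member when SD 3m and CR 12m had it in state 6 whereas SD 12m had it in state 8, and adjacent member bins were merged. The rule found 71063 bins, or 14.2 Mb, in 3446 stretches. These are 0.577% of the 12313718 autosomal bins and 6.98% of the 1017635 autosomal bins that were in state 6 in SD 3m (Wilson 95% interval 6.93 to 7.03, which covers the counting of bins only, and neighbouring bins are not independent).

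The marks H3K27me3, H3K4me3, H3K4me1 and H3K27ac were profiled by ChIP-seq from formalin-fixed, paraffin-embedded livers of inbred C57BL/6 female mice. Mice of the SD 3m group and of the SD 12m group were fed a standard diet and were 3 and 12 months of age, and mice of the CR 12m group, also 12 months of age, received a diet with 30% caloric restriction. The profiles of each group were merged and every bin of 200 bp was given 1 of 8 chromatin states, so there is 1 segmentation for each of the 3 groups. The H3K27me3 profiles behind them numbered 7 for SD 3m, 8 for SD 12m and 6 for CR 12m, all profiles 30, 29 and 29, and the read depth of the merged profiles is unknown. The variation among mice is therefore out of reach, and no p-value is given. Fewer marked cells and less mark per cell cannot be told apart in whole liver.

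Polycomb repressive complexes silence genes by placing and binding methyl groups on lysine 27 of histone H3. In adult liver the mark covers genes of other lineages, among them regulators of embryonic patterning, and it can spread from CpG-dense promoters over long domains. State 6 is the state in which H3K27me3 is the only frequent mark, and state 8 is the quiescent state, in which none of the 4 marks is frequent. A bin that passes from 6 to 8 is a bin in which H3K27me3 was no longer called, which says nothing of transcription.

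The states at control genes went with these descriptions. The transcription start sites (TSS) of Pax6, a regulator of eye and brain development, and of Neurod1, a regulator of neuronal and endocrine cell fate, were in state 6 in all 3 segmentations. The TSS of Alb, which encodes serum albumin, was in state 4, an enhancer state, in all 3. The TSS of Apoa1, the main protein of high-density lipoprotein, passed from state 4 at 3 months to state 1 under the standard diet and to state 3 under caloric restriction. Of 9 hepatocyte marker genes, 0 had the TSS in state 6 in any of the 3 segmentations. Of 14 markers of other liver cells, 2 had the TSS in state 6 in SD 3m, against 5 in SD 12m and 4 in CR 12m, and none of them was a member.

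The promoters below give the sequence at member TSS beside 2 TSS that kept state 6, and they are shown because the members differed from the stretches that kept state 6 in the density of CG. Each runs 5′ to 3′ on the strand of its gene, from 250 bases before to 50 bases after the TSS, in RefSeq build GRCm38.p6, with every CG in capitals. The first 4 belong to the protein-coding genes in the longest member stretches for which the promoter table held a sequence and whose stretch holds no other protein-coding TSS. Ins2, whose TSS lies in a longer stretch than any of these, is not in that table.
Tnfrsf13b (chr11:61126505-61126804, plus strand): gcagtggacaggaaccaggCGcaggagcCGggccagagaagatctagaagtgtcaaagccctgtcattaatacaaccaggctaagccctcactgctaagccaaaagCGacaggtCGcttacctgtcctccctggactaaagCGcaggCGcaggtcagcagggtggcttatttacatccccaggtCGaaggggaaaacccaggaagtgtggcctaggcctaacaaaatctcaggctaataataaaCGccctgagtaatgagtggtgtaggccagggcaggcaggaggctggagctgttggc
Sec14l3 (chr11:4064603-4064902, plus strand): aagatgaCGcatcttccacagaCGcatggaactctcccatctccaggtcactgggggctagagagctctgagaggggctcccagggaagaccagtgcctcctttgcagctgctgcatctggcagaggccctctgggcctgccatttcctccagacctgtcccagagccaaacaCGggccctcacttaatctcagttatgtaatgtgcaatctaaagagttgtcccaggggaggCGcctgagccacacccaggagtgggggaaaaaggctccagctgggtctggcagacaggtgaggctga
Rnf212b (chr14:54813900-54814199, plus strand): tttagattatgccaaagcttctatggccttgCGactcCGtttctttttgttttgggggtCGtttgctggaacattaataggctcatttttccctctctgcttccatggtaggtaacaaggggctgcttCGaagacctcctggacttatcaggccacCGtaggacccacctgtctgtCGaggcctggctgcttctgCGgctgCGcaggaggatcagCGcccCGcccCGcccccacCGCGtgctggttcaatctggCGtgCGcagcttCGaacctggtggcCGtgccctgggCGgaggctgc
Il19 (chr1:130940066-130940365, minus strand): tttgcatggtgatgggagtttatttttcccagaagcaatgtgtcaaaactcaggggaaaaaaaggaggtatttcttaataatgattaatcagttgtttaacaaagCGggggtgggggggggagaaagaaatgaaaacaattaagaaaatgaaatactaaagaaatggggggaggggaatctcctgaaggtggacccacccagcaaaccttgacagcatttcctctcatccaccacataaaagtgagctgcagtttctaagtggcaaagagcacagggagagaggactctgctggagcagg
Pax6 (chr2:105668646-105668945, plus strand): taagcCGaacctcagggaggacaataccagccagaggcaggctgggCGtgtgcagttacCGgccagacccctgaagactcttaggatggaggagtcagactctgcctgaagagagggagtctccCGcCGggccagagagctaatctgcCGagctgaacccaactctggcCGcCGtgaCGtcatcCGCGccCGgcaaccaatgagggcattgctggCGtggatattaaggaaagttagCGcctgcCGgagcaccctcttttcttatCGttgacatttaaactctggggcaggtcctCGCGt
Neurod1 (chr2:79456587-79456886, minus strand): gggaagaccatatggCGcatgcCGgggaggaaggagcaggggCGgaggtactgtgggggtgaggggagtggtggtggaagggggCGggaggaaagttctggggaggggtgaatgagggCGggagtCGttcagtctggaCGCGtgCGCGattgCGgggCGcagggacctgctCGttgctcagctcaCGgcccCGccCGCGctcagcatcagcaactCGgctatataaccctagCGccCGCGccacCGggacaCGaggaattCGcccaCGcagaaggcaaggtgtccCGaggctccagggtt
The 300 bases held 8 CG in Tnfrsf13b, 4 in Sec14l3, 18 in Rnf212b and 1 in Il19, against 18 in Pax6 and 26 in Neurod1. Of 18236 autosomal promoters in the table, 95.3% held at least 1 CG, and the median was 13. Rnf212b thus held as many CG as Pax6, and the other 3 member promoters shown held fewer than the median. Pax6 and Neurod1 were set as controls and do not stand for all TSS that kept state 6.

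The members were a minority of the Polycomb bins that reached state 8. Of the young Polycomb bins, 43.5% stayed in state 6 in both 12-month groups (442878 bins, hereafter kept), 29.2% were in state 8 in both (296722 bins, lost in both), and 12.4% lost state 6 to state 8 under caloric restriction alone (126167 bins, the mirror class). State 8 in SD 12m took up 37.6% of them, and state 8 in CR 12m took up 43.5%. Of the 382853 bins that were in state 8 in SD 12m, 18.6% were members and 77.5% were lost in both diets. The mirror class was 1.78 times as large as the member class, so by this count more Polycomb bins were absent only under caloric restriction than only under standard diet. The SD 12m segmentation rests on 8 and the CR 12m segmentation on 6 H3K27me3 profiles, and the part of this in the class sizes was not tested. Over all autosomal bins, state 6 covered 8.26% in SD 3m and 9.42% in CR 12m, while SD 12m had the most at 12.4%. Bins that passed from state 8 to state 6 in SD 12m only were 7.41 times as many as the members. These shares follow from the labels that define the classes and are given as a description.

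Bins close to the rule but outside it were fewer. A further 8289 bins (0.815%) were in state 6 in SD 3m and CR 12m but in the standard diet at 12 months in state 4, an enhancer state, and 681 (0.0669%) were in state 7. Another 11114 bins (1.09%) lost state 6 to state 8 under the standard diet but carried state 4 under caloric restriction.

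Members lay on all 19 autosomes. Their share of the SD 3m Polycomb bins ran from 4.11% on chromosome 13 to 9.70% on chromosome 12, with a median of 7.27%. The mirror class exceeded the members on 18 of 19 autosomes. The exception was chromosome 12, where members were 9.70% and the mirror class 9.30%. Chromosome 2 held the most member bins, 9726, and chromosome 19 the fewest, 1234.

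**Figure D1:**
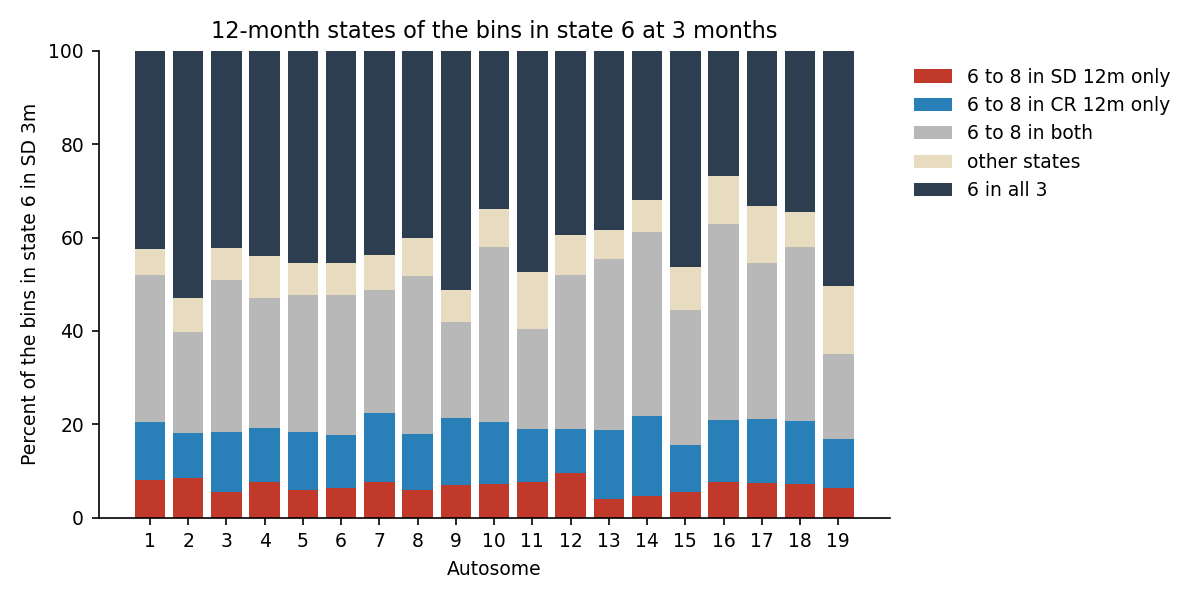
Stacked bars give, for each autosome (x axis), the percent of the young state 6 bins (y axis) by their states at 12 months; red bars are the members. Members made up 4.11% to 9.70% per autosome and were fewer than the mirror class (blue) on all autosomes but chromosome 12.

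Member stretches were short. Their median length was 2800 bp (quartiles 1200 and 5800 bp), their longest 27800 bp, and 180 of them were a single bin. The kept stretches had a median of 8400 bp and a longest of 321200 bp. Stretches lost in both diets had a median of 4200 bp, and those of the mirror class 3600 bp. The 297 member stretches of 10 kb or more held 29.3% of the member bins, whereas such stretches held 82.2% of the kept bins. At the scale of 10 kb windows, 1447 windows had state 6 as their most frequent state in SD 3m and CR 12m and state 8 in SD 12m, which was 7.02% of the 20616 windows led by state 6 in SD 3m.

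The stretches were spread thinly along the chromosomes. Of 2473 blocks of 1 Mb, 1180 (47.7%) held at least 1 member bin, with a median of 8.2 kb in those that did, and 208 blocks held 50% of the members. The block with the most was chr12:82000001-83000000, where 10 stretches covered 85 kb, or 24.3% of its SD 3m Polycomb bins. That block kept state 6 in 487 bins, lost it in both diets in 762 and lost it only in CR 12m in 14.

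Most member bins belonged to Polycomb domains that stayed in state 6 elsewhere, and a smaller part to domains that were lost whole. State 6 in SD 3m and CR 12m together formed 7046 unbroken runs with a median of 8800 bp. Of these, 3048 (43.3%) held at least 1 member bin, 2026 (28.8%) held member bins beside bins still in state 6 in SD 12m, and 852 (12.1%) consisted of members alone. The partly retained runs held 66.0% of the member bins and the runs of members alone 28.1%. In the mirror comparison 1545 of 7458 runs (20.7%) were wholly in state 8 in CR 12m, which held 35.4% of the bins of that class, and partly retained runs held 62.7%.

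The loss of a whole run was tied to its length. Of the runs over 1 kb and up to 2 kb in length, 31.1% consisted of members alone. The share was 13.0% for runs over 5 kb and up to 10 kb, 0.249% for runs over 20 kb and up to 50 kb, and 0 for the 330 runs over 50 kb. Longer runs had more often lost some bins, with a share of 51.8% over 50 kb against 31.9% up to 1 kb. Measured in bins, members fell from 33.97% of the runs over 1 kb and up to 2 kb to 5.36% of those over 50 kb. A longer run offers more bins at which a loss can be called, which these shares do not take into account.

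**Figure D2:**
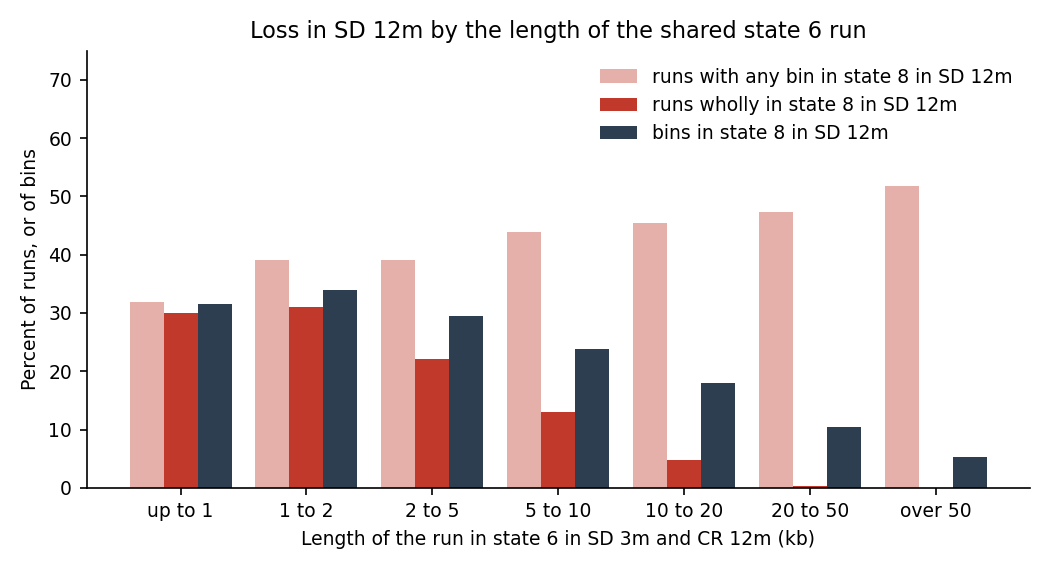
Bars give, for runs in state 6 in both SD 3m and CR 12m grouped by length (x axis, kb), the percent of runs with any bin in state 8 in SD 12m, the percent wholly in state 8 in SD 12m, and the percent of bins in state 8 in SD 12m. Wholly lost runs drop from 30.0% of the shortest to 0 of those over 50 kb, while runs with any loss rise from 31.9% to 51.8%.

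Within the SD 3m domains, members lay on average between the kept bins and the bins lost in both diets. The median member bin was 5600 bp from the nearest edge of its SD 3m run, against 9400 bp for kept bins, 3800 bp for bins lost in both and 5600 bp for the mirror class. The member share changed little with this distance, from 6.51% within 1 kb of the edge to 7.64% between 5 and 10 kb and 5.19% beyond 20 kb. Over the same distances the share lost in both diets dropped from 38.8% to 12.9% and the kept share rose from 22.5% to 71.5%. Members were therefore found at all depths of the young domains, while the share lost in both diets was highest near their edges. Depth goes with length, since only long runs hold deep bins. The share lost in both was 45.1% in SD 3m runs up to 1 kb and 16.2% in those over 50 kb. The kept share was 14.2% and 65.1%. Distance to the edge and run length were not told apart.

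The borders of the stretches describe the same position. In SD 3m, 59.4% of member stretches had state 6 on both sides and 5.14% on neither side. Under the standard diet at 12 months, 66.5% touched state 6 on at least 1 side, 5.05% had it on both sides, and 64.1% of member bins (Wilson 95% interval 63.8 to 64.5) lay in stretches that touched it. All bins of a stretch share this value, so the interval, which covers the counting of bins only, is too narrow. In CR 12m, 39.2% of member stretches had state 6 on both sides. A member stretch thus most often had state 6 on 1 side and another state on the other, and was rarely a gap inside a domain of SD 12m. Stretches of the mirror class touched state 6 in CR 12m, the segmentation without it, in 65.1% of cases, and stretches lost in both diets touched it in SD 12m in 30.0%.

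Outside the stretches, the 3 segmentations differed close by. The rule sets part of this too, since flanks can hold other member stretches and the bin next to a stretch cannot have the member labels. In the first 1 kb outward, 74.5% of bins were in state 6 in SD 3m, compared with 36.1% in SD 12m and 62.8% in CR 12m. Between 5 and 10 kb the values were 51.5%, 37.6% and 42.7%. Between 10 and 30 kb they were 40.2%, 34.7% and 34.6%, and the 12-month groups crossed within that range, with CR 12m the lower at 30 kb (31.5% against 32.95%). With the bins of other member stretches left out, the values between 5 and 10 kb were 49.2%, 39.4% and 39.99%. Between 20 and 30 kb they were 35.1%, 35.2% and 30.1%, with CR 12m the lowest. Leaving out member bins can only lower SD 3m and CR 12m and raise SD 12m, while bins of the mirror class stay in. The low value of CR 12m there is therefore set in part by this step. The model smooths states along the genome, and the part of this in the values close to a stretch was not tested.

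**Figure D3:**
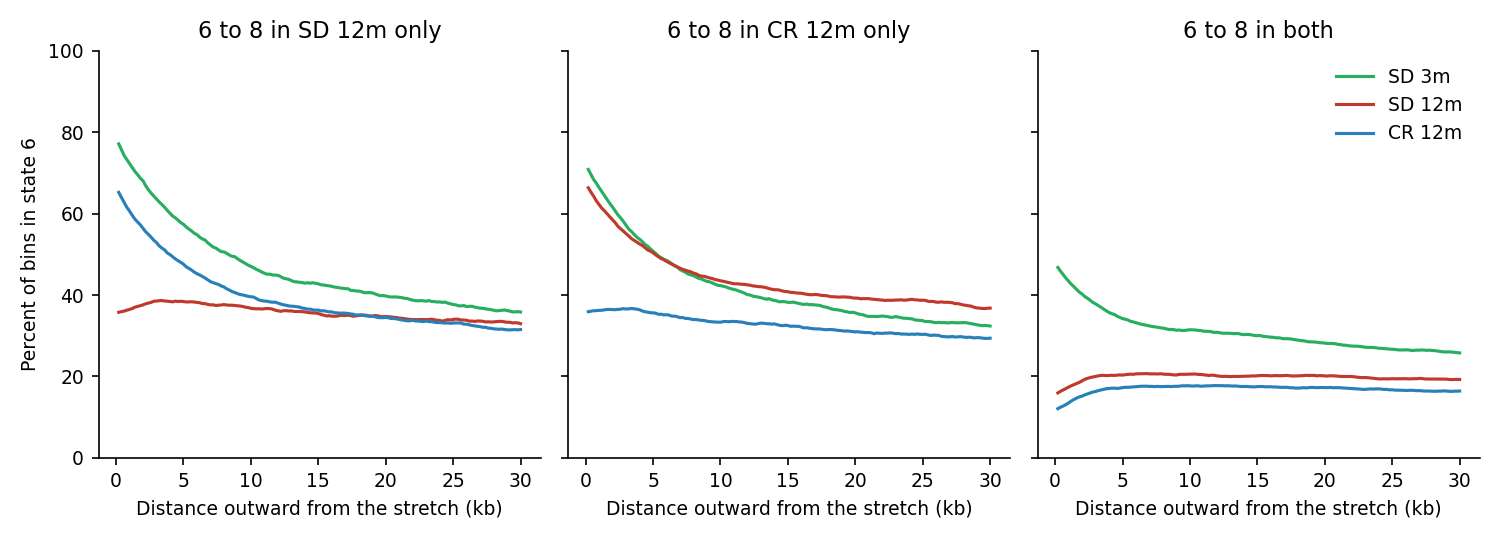
Lines give the percent of bins in state 6 (y axis) against the distance outward from both ends of a stretch (x axis, kb) in SD 3m, SD 12m and CR 12m, for the members (left), the mirror class (middle) and stretches lost in both diets (right). Around members the SD 12m line stays between 32.95% and 38.6%, and the CR 12m line starts at 65.2% and lies below it at 30 kb, at 31.5%.

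The state 8 runs of SD 12m that held members were in large part bare in young mice too. There were 3178 such runs, with a median of 14800 bp, and 56.7% of their bins had been in state 8 in SD 3m already. Of these runs, 429 consisted of members alone.

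The sequence under the members was poorer in CG than that under the kept stretches at nearly the same base composition. CpG observed over expected, the count of CG divided by the count that the C and G content would give, was 0.195 in members (0.178 to 0.230 over the autosomes) and 0.222 in kept bins (0.206 to 0.252). It was lower in members than in kept bins on 19 of 19 autosomes. GC content was 44.3% in members and 44.3% in kept bins, and it was lower in members on 12 of 19 autosomes. Bins lost in both diets had a ratio of 0.189 and the mirror class 0.197, so all 3 classes that reached state 8 lay below the kept class. The ratio over all autosomal bins was 0.194. The part of base content in how often a mark was called was not tested.

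The difference in CG held at every depth in the domain. Within 1 kb of the edge of the SD 3m run the ratio was 0.199 in members and 0.233 in kept bins, and beyond 20 kb it was 0.184 and 0.225. Bins rich in CpG, with a ratio of at least 0.6 and a GC content of at least 50%, made up 0.702% of members, 1.84% of kept bins, 0.577% of bins lost in both and 0.864% of the mirror class. Repeats, as soft-masked in the reference genome, covered 28.6% of members and 25.1% of kept bins, with more in members on 18 of 19 autosomes. The class lost in both had 28.6% and the mirror class 26.3%, so members exceeded the mirror class in repeats and in GC content, which was 43.1% there.

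Members lay near promoters less often than kept bins did. Bins within 2 kb of a TSS made up 3.40% of members, 6.90% of kept bins, 2.63% of bins lost in both and 4.79% of the mirror class, against 3.85% of all autosomal bins. Curated gene bodies covered 34.3% of members and exons 4.67%, compared with 36.0% and 5.85% of kept bins. Of the 3446 stretches, 1238 (35.9%) overlapped a protein-coding gene and 1676 (48.6%) overlapped no annotated gene. The protein-coding genes overlapped, by their full annotated span, numbered 886, and only 112 stretches held a TSS.

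Of the 2543 autosomal TSS that were in state 6 in SD 3m, 122 were members, or 4.8%. The count was 203 when a member bin within 1 kb of the TSS sufficed. This is the background for all counts of TSS given here. Another 1528 (60.1%) were kept, 353 (13.9%) were lost in both and 290 (11.4%) belonged to the mirror class. The member TSS comprised 88 of protein-coding genes, 30 of long non-coding RNA genes, 1 of a microRNA gene (Mir138-1) and 3 of other kinds. Among long non-coding RNA genes the member share was 6.83%, and among protein-coding genes 4.40%.

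The TSS bins of members also held few CG. The 200 bases of the bin had a median of 4 CG at member TSS, 8 at kept TSS, 4 at TSS lost in both, 5 in the mirror class and 9 over all 24963 autosomal genes. At least 10 CG were found at 22.95% of member TSS and at 44.6% of kept TSS. Exceptions with a dense TSS bin were H1f10, a linker histone gene, with 31 CG, Rgma, which encodes an axon guidance molecule, with 27, and Rhbdl3, of the rhomboid family, with 27. These 3 were picked for their counts after the values were seen.

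Few developmental transcription factors were members. Of 164 developmental transcription factors with the TSS in state 6 in SD 3m, 148 kept it in both 12-month groups, and 1, Tal2, a helix-loop-helix factor, was a member. Within 10 kb of the Tal2 TSS, state 6 covered 51.5% of bins in SD 3m, against 0 in SD 12m and 45.5% in CR 12m. Without the member bins, which the rule fixed, the values were 31.0%, 0 and 22.5%. Keratins and keratin-associated proteins, which build skin and hair, kept state 6 at 46 of 48 TSS, with 1 member, Krtap4-9. Member shares of 0.610% and 2.08% in these lists compare with 4.8% of all TSS, and no test of the difference was made. The low share was not particular to members. Of the developmental transcription factors 1.83% were lost in both and 1.83% were in the mirror class, against 13.9% and 11.4% of all TSS. For the keratin list these shares were 2.08% and 0.

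The counts of the receptor and channel lists were small, and their member shares were 2.22% to 11.1%, on both sides of the 4.8% of all TSS. Among 45 ion channel genes in state 6 in SD 3m, 35 were kept and 1 was a member, Scn2a, a neuronal sodium channel. Among 27 neurotransmitter receptor genes 17 were kept and 1, Adra2c, an adrenergic receptor, was a member. Of 108 olfactory receptor genes, which encode odorant receptors of the nose, 3 were members, all of them on chromosome 7 (Olfr520, Olfr521 and Olfr524), and 28 belonged to the mirror class. Of 9 vomeronasal receptor genes, 1 was a member (Vmn1r39) and 4 belonged to the mirror class.

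The remaining lists gave single members or none. Collagens had 1 of 9 (Col6a2, a chain of collagen VI), chemokines and interleukins 1 of 19 (Il19) and solute carriers 1 of 38 (Slc46a2). Among the Wnt, Fgf, Bmp and Hedgehog ligands 0 of 27 were members, and among genes of axon guidance and synaptic adhesion 0 of 17. Zinc finger proteins had 0 of 9, cadherins and protocadherins 0 of 6 and cytochrome P450 genes 0 of 5. The genes of the Polycomb complexes and the inhibitors of the cell cycle had no TSS in state 6 in SD 3m.

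**Figure D4:**
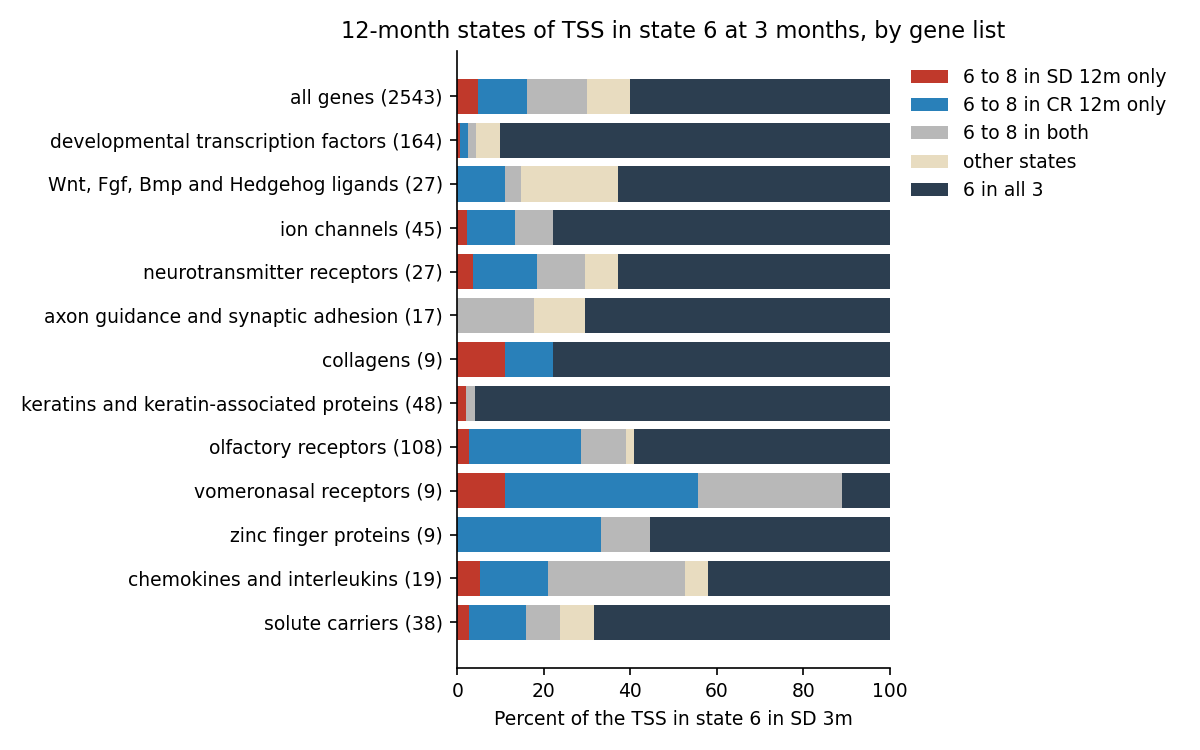
Stacked bars give, for each gene list (y axis, number of TSS in state 6 in SD 3m in parentheses), the percent of those TSS (x axis) by their states at 12 months, for lists with at least 9 such TSS. Members (red) were 4.80% of all such TSS and 0.610% of the developmental transcription factors.

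Ins2 lay in the longest member stretch that held a protein-coding TSS. Ins2 encodes insulin, a hormone of pancreatic beta cells, and lies beside the imprinted gene Igf2. The stretch, chr7:142675401-142701200 in mm10, is 25.8 kb and covers the whole gene (chr7:142678656-142679726, minus strand), with its 583 bases of exon, its introns and its start. In SD 3m all bins within 60 kb of the TSS were in state 6. In SD 12m a run of state 8 reached from 4.2 kb on the Igf2 side of the TSS to 38.4 kb on the other side, and state 6 remained in 64.6% of bins. In CR 12m the run of state 8 reached from 21.6 to 32.8 kb, and state 6 remained in 90.7% of bins. The gap of CR 12m thus lay inside the wider gap of SD 12m. All of these bins were in state 6 in SD 3m, so every bin in which the diets differed here is a member. The rule therefore sets the whole difference between 64.6% and 90.7%. CpG observed over expected was 0.0777 and repeats were 6.66% in the Ins2 stretch.

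**Figure D5:**
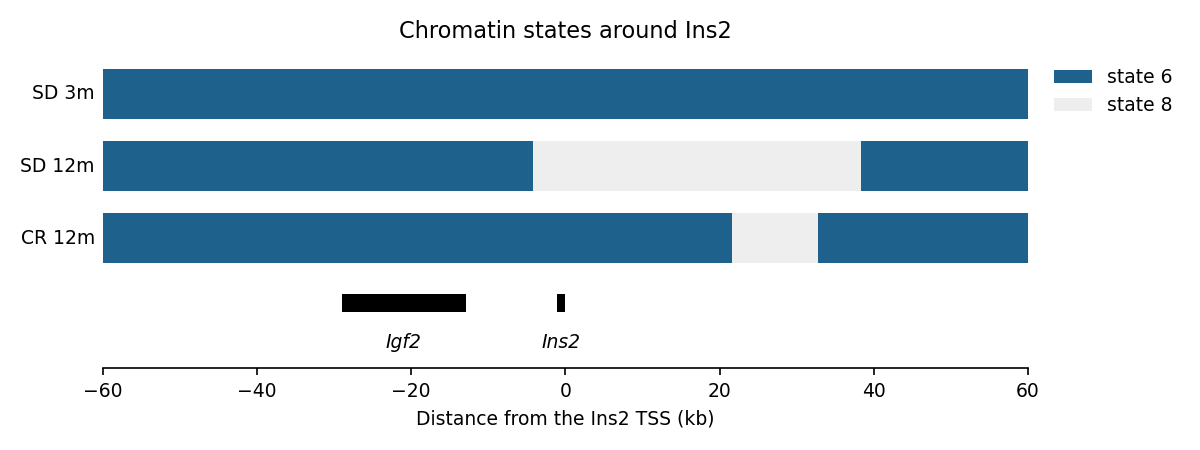
Coloured bars give the chromatin state in SD 3m, SD 12m and CR 12m along 60 kb to each side of the Ins2 TSS (x axis, kb), with the protein-coding genes in black below. State 8 covers -4.2 to 38.4 kb in SD 12m and 21.6 to 32.8 kb in CR 12m.

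The windows given next reach 10 kb to each side of a TSS and include the member stretch itself, so the rule sets part of each value. The transcripts given beside them hold member bins too. At some genes the rule sets the whole difference between the diets. Without the member bins SD 12m and CR 12m were level at Tnfrsf13b, where only 2 bins were left. They were also level at Klre1, Il31ra, Sycp2, Tekt4, Wfdc12, Wfdc15a, Svs5, Palld and Spx. CR 12m stayed above SD 12m at Tnfsf4, Rnf212b, Majin, Sec14l3, Scn2a and Col6a2, and was below it at Il19. Tnfrsf13b, a receptor of B cells for survival factors of the TNF family, lay in a stretch of 23.2 kb. Within 10 kb of its TSS all bins were in state 6 in SD 3m and in CR 12m, and 1.98% in SD 12m. Il19, a cytokine of the interleukin 10 family, lay in a stretch of 15.4 kb, with 100% of bins in state 6 in SD 3m, compared with 44.6% in SD 12m and 50.5% in CR 12m. These near-equal 12-month values came from different bins, since state 6 covered 89.5% of the Il19 transcript in SD 12m and 2.63% of it in CR 12m.

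Klre1, a receptor of natural killer cells, had 100% of bins in state 6 within 10 kb of the TSS in SD 3m, against 44.6% in SD 12m and 91.1% in CR 12m. Its transcript stayed largely in state 6, with 100%, 84.6% and 100%. Il31ra, a receptor subunit for interleukin 31, had 100%, 18.8% and 62.4% within 10 kb, and 62.9%, 33.3% and 69.4% over its transcript. The next values are again those within 10 kb. Tnfsf4, the ligand that costimulates T cells through OX40, had 100%, 0 and 50.5%. These and the following genes are named by the length of their stretch alone, and no function shared among them was tested.

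Rnf212b, a factor of meiotic recombination, lay in a stretch of 17 kb, and state 6 covered 83.2% of bins within 10 kb in SD 3m, compared with 0 in SD 12m and 84.2% in CR 12m. Over its transcript the values were 61.2%, 30.3% and 17.4% in the same order, so there CR 12m lay below SD 12m. Sycp2, a protein of the synaptonemal complex, had 73.3%, 34.7% and 71.3% within 10 kb, but 100%, 94.9% and 100% over its transcript. Majin, which tethers telomeres to the nuclear envelope in meiosis, had 94.1%, 26.7% and 75.2% within 10 kb. Its transcript had 96.5%, 20.9% and 96.0%. Tekt4, a filament protein of the sperm tail, had 100%, 49.5% and 100% within 10 kb, and 100%, 0 and 100% over its transcript. The Tekt4 transcript lies wholly inside its member stretch, so the rule alone sets its transcript values.

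Sec14l3, a lipid-binding protein, had 86.1% of bins within 10 kb in state 6 in SD 3m, against 0 in SD 12m and 79.2% in CR 12m. Wfdc12 and Wfdc15a, neighbouring genes for secreted protease inhibitor domain proteins, shared a stretch of 16.6 kb. At Wfdc15a the values were 100%, 22.8% and 100%. Svs5, a seminal vesicle protein, had 100%, 43.6% and 87.1%, and it is on chromosome 2 as are both Wfdc genes.

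Scn2a differed in the neighbourhood from most of these genes. State 6 covered 41.6% of bins within 10 kb of its TSS in SD 3m, compared with 30.7% in SD 12m and 94.1% in CR 12m, so state 6 there was wider in CR 12m than in young mice. Without the member bins the values were 0, 52.5% and 89.8%. The lower value of SD 12m than of SD 3m thus came from the member bins, which the rule fixed. Over the Scn2a transcript the values were 9.52%, 32.4% and 25.99%, so there SD 12m lay above both SD 3m and CR 12m. Within 10 kb, Palld, an actin-associated protein, had 74.3%, 0 and 63.4%, and Spx, a secreted neuropeptide, had 72.3%, 0 and 41.6%. Col6a2 had 31.7%, 0 and 54.5%. Over all 122 member TSS the median was 75.7% in SD 3m, against 29.7% in SD 12m and 65.8% in CR 12m, and in 34 of them state 6 was absent within 10 kb in SD 12m. Without the member bins, which the rule fixed, the medians were 64.0%, 43.9% and 53.6%. On those bins CR 12m lay above SD 12m at 71 TSS, below it at 8 and level with it at 43. The windows lie around bins chosen for state 6 in CR 12m and state 8 in SD 12m, and the model smooths states. Higher values in CR 12m nearby can thus come in part from this choice. No such count was made for other TSS, and the member TSS lay in 112 stretches, so they are not independent.

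The other genes among the 30 protein-coding TSS with the longest stretches were Ccdc175, Zpld2, Cracr2a, Ankrd34b, Epb42, Iqcf4, Tcf20 and Wdr64, besides the olfactory receptor genes, Krtap4-9 and those described. Epb42 encodes a protein of the red cell membrane skeleton and Cracr2a a regulator of calcium channels in T cells. Their stretches measured 6.2 kb (Col6a2) or more.

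The longest stretches seldom held a TSS. The longest of all, chr9:60625201-60653000 at 27.8 kb, lay within Lrrc49 (minus strand), with 62 bases of exon and the rest intron. The second, chr3:119604001-119631600 at 27.6 kb, overlapped no gene and was the longest run that consisted of members alone. The third, chr2:29268001-29294400 at 26.4 kb, and the fourth, chr12:82559801-82586000 at 26.2 kb, overlapped no gene either.

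The Ins2 stretch came next in length. The stretch at chr2:69491201-69516800 lay in Lrp2, the gene of the endocytic receptor megalin, with 3512 bases in exons, and that at chr8:92870401-92896000 lay in Lpcat2, a gene of phospholipid remodelling, with 686 bases in exons. Each of these was 25.6 kb long. The stretch at chr12:36923601-36948800, of 25.2 kb, overlapped no gene.

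The last pair of the 10 measured 24.6 kb each. The stretch at chr11:80303201-80327800 lay in Rhbdl3, with 384 bases in exons. The stretch at chr4:61877201-61901800 overlapped the pseudogene Mup-ps18, of the family of major urinary protein genes, and repeats covered 63.4% of it. Genes of that family are close copies of each other, and how well reads could be placed there was not measured.

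The surroundings of these 10 stretches were not alike in the 12-month groups. Beside the stretch on chromosome 3, the 10 kb to its left were in state 6 in 100% of bins in SD 3m, compared with 90% in SD 12m and 0 in CR 12m. That is the reverse of the pattern inside the stretch. Beside the stretch on chr2:29268001-29294400 the same side gave 100%, 96% and 100%.

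Counted over the longest curated transcript, 822 protein-coding genes held at least 1 member bin, or 23.1% of the 3557 whose transcript held a young state 6 bin, and 311 held 5 kb or more. Long genes lead this ranking, and members as a class were about as frequent in gene bodies (34.3%) as all young state 6 bins (33.7%). Rgs6, a regulator of G protein signalling on chromosome 12, held the most, 86 kb in 13 stretches. State 6 covered 68.8% of the Rgs6 transcript in SD 3m, against 13.5% in SD 12m and 29.6% in CR 12m, so most of this gene was out of state 6 in both 12-month groups. Without the member bins the 12-month values were 16.0% and 16.4%.

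Dnah8, a dynein heavy chain of sperm flagella, held 62.8 kb, and state 6 covered 54.9%, 33.2% and 62.2% of the transcript in SD 3m, SD 12m and CR 12m. Kalrn, a signalling protein of synapses, held 44.4 kb, with 25.5%, 4.15% and 23.7%. Megf11, a receptor of the MEGF family, held 35.4 kb, with 20.9%, 4.76% and 20.2%. The member bins, fixed by the rule, are part of these values. Leaving them out cannot lower the SD 12m share and cannot raise the SD 3m and CR 12m shares. Without them Dnah8 had 39.6%, 44.5% and 49.4%, so its SD 12m value was no longer the lowest, while Kalrn had 18.9%, 4.51% and 16.97%, and Megf11 11.2%, 5.34% and 10.4%.

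The other genes with the most member bins were Lrrc49 (36.6 kb), Lpcat2 (33.6 kb, which is 52.3% of its transcript), Garnl3 (33 kb), Kcnh1 (29.8 kb), Hmcn1 (27.4 kb) and Mroh8 (27.4 kb). Lrrc49 was in state 6 over 50.9% of the transcript in SD 3m, compared with 24.95% in SD 12m and 84.8% in CR 12m. Hmcn1, which encodes an extracellular matrix protein, had 7.88%, 3.66% and 25.2%. In both genes state 6 covered more of the transcript in CR 12m than in SD 3m, also without the member bins (76.1% against 22.98% in Lrrc49 and 20.2% against 1.63% in Hmcn1). Without the member bins SD 12m also lay above SD 3m, at 39.1% in Lrrc49 and 3.91% in Hmcn1, though the removal itself works in this direction. Garnl3 had 65.3%, 7.29% and 29.3%, which places CR 12m nearer to SD 12m than to SD 3m. Without the member bins Garnl3 had 9.43% in SD 12m and 8.54% in CR 12m, Lpcat2 39.9% and 29.4%, and Mroh8 84.0% and 81.7%. The order of the diets thus turned in these genes, but the removal itself sets the direction of this change.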

How the data were processed

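Per the labels and the methods of the study, the authors aligned reads to mm10 with BWA 0.6.2-r126, removed duplicate reads and reads with a mapping quality under 1 with SAMtools 0.1.18, merged the libraries of a group and assigned chromatin states with ChromHMM in bins of 200 bp. The deposited value is a state label from 1 to 8, a category and not a signal, so merging, binarization and smoothing by the model are already in it. Labels were used without a filter in Python 3.11.15 with numpy 2.4.6 and pandas 2.3.3. The members and the gene lists were chosen with earlier results of these data known.

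Runs of equal labels, borders and shares were computed per class, with Wilson 95% intervals. Gene models, TSS (start of the longest curated RefSeq transcript of 24963 autosomal genes) and sequence came from RefSeq GRCm38.p6, whose whole bins equalled those of the files on all 20 chromosomes. Promoter sequences matched 95 of 122 member TSS, under 80% of them, so CG counts of TSS were taken from the genome instead. Genes were named by stretch length, by member bins in the transcript, or as list members or controls. The functions recovered all 2000 simulated stretches exactly. SD 6m was not analysed here.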

Additional observations from a re-analysis of the deposited data

How the results depend on the processing

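No paired analysis was possible because each group has 1 segmentation of merged libraries, and for the same reason no replicate could be left out. The share of SD 3m Polycomb bins that were members, 6.98%, was 7.05% for bins over 1 kb from a run edge, 7.90% with any state other than 6 in SD 12m, and 6.06% with chromosome X included. GC content was 44.33% for bins over 1 kb from a run edge, against 44.29%. The number of genes with a member at the TSS, 122, became 203 when a member bin within 1 kb of the TSS sufficed. The number of stretches was 3378 with gaps of up to 1 kb joined and 2794 with a minimum of 1 kb. The windows with the member pattern numbered 2856 at 5 kb, which follows from the smaller window. Gene bodies covered 45.9% of members when all gene models were used. Members stayed below kept stretches in CpG observed over expected and above them in repeats for bins over 1 kb from a run edge and for stretches of at least 1 kb, settings added for these differences after the data were seen. Leaving out the member bins from windows and transcripts was also added then. The depth of the merged libraries is unknown, so a missed mark and an absent mark cannot be told apart.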
